A study of Mus musculus with 8 samples.

Results

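The nuclear genes of the mitochondrial respiratory chain and of the ATP synthase were described in mouse cortical neurospheres, balls of neural precursor cells that grow in suspension, with and without earlier exposure to ethanol. Probes were chosen by gene symbol alone, as subunits of complexes I to V, cytochrome c (Cycs) and cytochrome c1 (Cyc1). The rule found 88 probes for 87 genes, of 15094 named genes on the array. They comprise 31 subunits of complex I, 7 assembly factors of complex I that carry the same root name, 4 subunits of complex II, 9 of complex III, Cycs, 17 of complex IV, 16 of complex V and 2 pseudogenes. Ndufa4 was counted with complex IV, where its protein is now placed. The subunits encoded by mitochondrial DNA were not analysed here.

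Complexes I and II take electrons from NADH and succinate and pass them through ubiquinone to complex III. Cytochrome c carries them on to complex IV, which reduces oxygen. Complexes I, III and IV pump protons across the inner membrane, and complex V, the ATP synthase, lets them back through its rotating c ring to drive ATP synthesis in its F1 head. Neural progenitors rely much on glycolysis and turn towards oxidative phosphorylation as they become neurons. Nuclear respiratory factor 1 (Nrf1), the ETS factor Gabpa and the coactivator Ppargc1a are known transcriptional regulators of these genes.

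Control cultures and cultures given ethanol at 320 mg/dl for 5 days of proliferation were compared, both from cortex at gestational day 12.5. All grew in serum-free medium with basic FGF, EGF, LIF, insulin, transferrin, selenium, heparin and progesterone. Both were differentiated by taking away EGF and LIF, with basic FGF still in the label of every sample, and ethanol was absent from the exposed cultures over these 3 days. RNA of both conditions was hybridised together on 8 arrays, with the exposed RNA in Cy3 on replicates 1 to 4 and in Cy5 on replicates 5 to 8. The labels give no strain and no number of embryos. They do not say which arrays came from separate cultures, so p-values reflect array-to-array spread that may be technical.

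The deposited values are log2 ratios whose numerator, control or exposed, Cy3 or Cy5, is not given in the sources used. Each gene's values were therefore split in the same way for every probe. The shared part averages the dye orientations, and it holds the ethanol effect if a condition stood over the other on all arrays. The turning part is 0.5 times the gap between the orientations, exposed RNA in Cy5 minus exposed RNA in Cy3, and it holds the ethanol effect if a dye stood over the other. The other part holds dye effects in either case. Noise, and any other difference between the arrays of the orientations, can enter both parts. These cannot be told apart. No sign below says whether exposed cells held more or less of a transcript. Every array was centred on the median of its measured values, and all values below are on that log2 scale unless another is named. A gene was tested where each orientation gave it at least 3 values. Fewer cells of a type and less RNA per cell cannot be told apart in such bulk samples.

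The member genes were measured on more arrays than most probes. Of the 88 member probes 80, each for a different gene, were tested (90.9%), against 71.1% of all 21582 probes. Values were present on all 8 arrays for 74 of the 80 (92.5%), against 68.3% of the 15345 probes tested. The genes not tested were Ndufa3, Ndufb5 and Ndufb7 of complex I, Uqcrh of complex III, and Cox7a1, Cox7b2 and Cox8a of complex IV. The other probe of Atp5md was not tested either. The members also varied less between arrays: the median SD within an orientation was 0.52 in Cy3 and 0.58 in Cy5, against 1.09 and 1.18 over all tested probes. Ribosomal protein genes shared this, with 0.43 and 0.29 for cytosolic and 0.59 and 0.62 for mitochondrial ones.

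A feature of the table, shared with some other lists, bears on the signs that follow. Each array's deposited values carry an added constant, which the table reveals, and the ratio before that constant can be recovered. On some arrays many members had a ratio of 1 there, within 0.002. This held for 8, 7, 2 and 0 member probes on replicates 1 to 4, and for 15, 0, 9 and 0 on replicates 5 to 8. As a share of member values the highest were 17.4% on replicate 5, 10.8% on replicate 7, 9.64% on replicate 1 and 8.33% on replicate 2, while all probes stood between 1.04% and 2.49% on every array. In all, 22 of 88 member probes (25.0%) had such a ratio on at least 1 array, against 9.76% of all probes. It was more frequent still among cytosolic ribosomal protein probes (51 of 74, 68.9%), similar among carriers and porins (5 of 19, 26.3%) and rare among mitochondrial ribosomal protein probes (3 of 72, 4.17%). Among citric acid cycle probes it held for 1 of 21 (4.76%), and among assembly factors outside the rule for 0 of 31. Atp5h, Atp5j2, Cox4i1, Cox5b, Uqcrfs1 and the pseudogene Atp5k-ps1 had it on 3 arrays each. After centring, a ratio of 1 reads 1.24, 1.31, 0.58 and 0.79 on replicates 1 to 4 and -0.18, -0.45, -0.05 and -0.71 on replicates 5 to 8. Its shared part is 0.32 and its turning part -0.66. The table holds no intensities, so why these ratios lie at 1 was not tested.

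**Figure D1:**
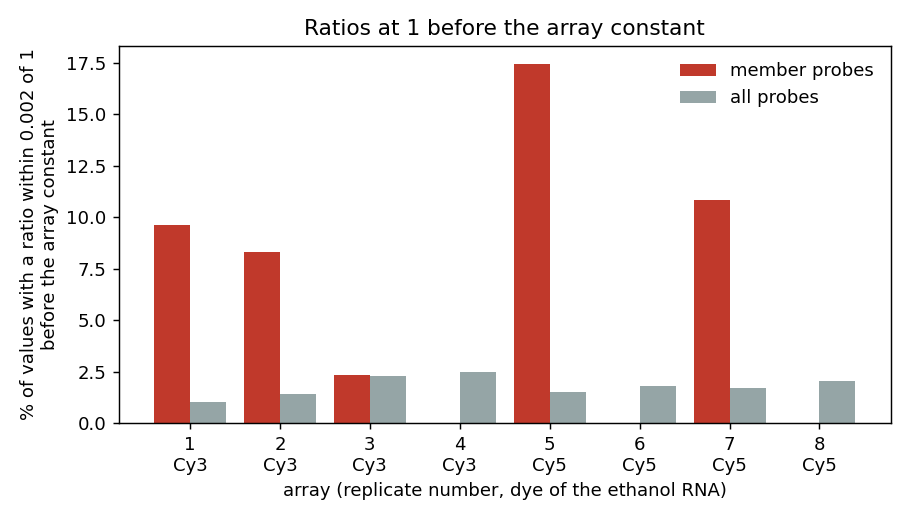
Share of values (%, vertical axis, from 0) whose ratio lies within 0.002 of 1 before the array's constant, by array (horizontal axis, replicate number and dye of the exposed RNA), for member probes (red) and all probes (grey). Members reach 17.4% on replicate 5 and are at 0 on replicates 4, 6 and 8, while all probes stay between 1.04% and 2.49%.

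In the shared part the median of each complex lay above the array median by a small amount, under the centring used. Of 80 tested members 62 (77.5%) were positive, against 46.1% of all tested probes, and the median was 0.35 (1.27 times the array median as a ratio) against -0.06. By complex, the median was 0.30 for complex I (24 of 28 positive), 0.47 for complex II (4 of 4), 0.23 for complex III (5 of 8), 0.35 for complex IV (9 of 14) and 0.37 for complex V (13 of 16). Without centring and before the array constant, the members' median was 0.04 with 44 of 80 positive and the median of all probes was -0.38. There 28.2% of all probes were positive, and complexes I and III turned to -0.01 and -0.09. With the arrays centred but without ratios at 1, the median of complex IV was 0.063 over the 11 genes left, and those of complexes I, III and V were 0.30, 0.38 and 0.29. The distance from members to all probes was 0.41, and it ranged from 0.31 to 0.53 over 20 other settings of the analysis.

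By limma with Benjamini-Hochberg adjustment over all tested probes, the shared part of 0 of 80 members passed the threshold of 0.05, where the share over all probes was 0.0% as well. The lowest member value was an adjusted p of 0.206, for Atp5g2. At an unadjusted p under 0.05 there were 8 members of 80, against 13.9% of all tested probes. Of these, 7 were positive, against 4.88% of all probes, and 1 was negative, against 9.01%. The 7 were Atp5g2, Atp5o and Atp5c1 of complex V, Ndufb9, Ndufa8 and Ndufs3 of complex I, and the assembly factor Ndufaf3. The negative gene was Atp5mpl.

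On 3 of the Cy3 arrays the members' median was higher than on any Cy5 array, under the centring used. It was 0.645 on replicate 1, 0.46 on replicate 2, 0.52 on replicate 3 and 0.23 on replicate 4. On replicates 5 to 8 it was -0.10, 0.19, 0.265 and -0.09. The medians of all tested probes lay between -0.15 and 0.14 on the 8 arrays. Every Cy3 array thus read above its own overall median, while replicate 8 of the Cy5 arrays read below it. A ratio of 1 also reads higher on replicates 1 to 4 than on replicates 5 to 8.

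**Figure D2:**
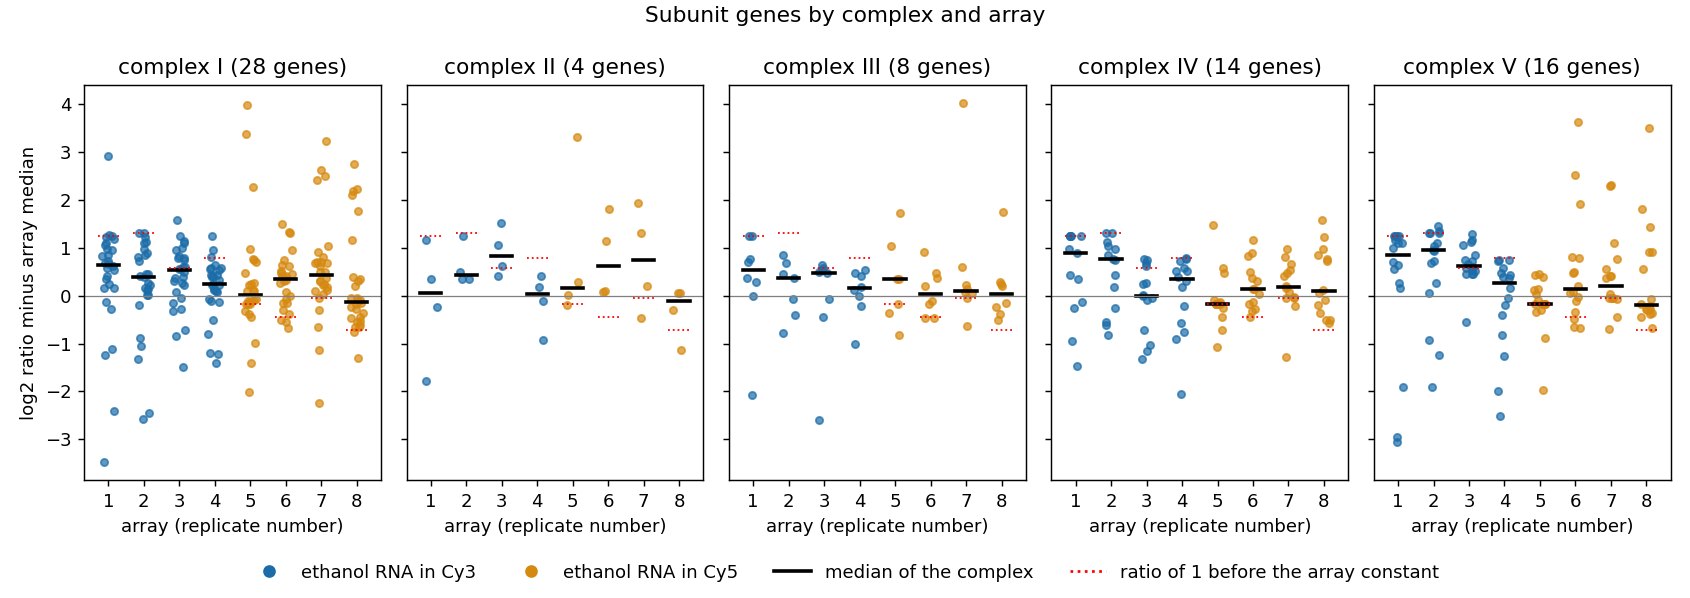
Log2 ratio minus the array median (vertical axis) of each tested subunit gene (points) on arrays 1 to 8 (horizontal axis), in 1 panel per complex, with exposed RNA in Cy3 in blue and in Cy5 in orange. Black bars are the medians of the complex and red dotted bars the value that a ratio of 1 takes on that array after centring. Under this centring the medians of complex V on replicates 1 to 4 run from 0.26 to 0.95, and on replicates 5 to 8 from -0.19 to 0.20.

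In the turning part the members stood slightly below all probes. Their median was -0.04 with 35 of 80 positive, against 0.11 and 56.9% for all tested probes. No member passed the adjusted threshold (0 of 80, against 1.56% of all probes by limma), and at an unadjusted p under 0.05 there were 2 of 80, against 13.8% of all probes. Ndufb8 was the positive one, against 8.69% of all probes, and Cycs the negative one, against 5.14%. The sign depends on the scale: the members' median was 0.27 as deposited and 0.62 before the array constant, with all probes at 0.42 and 0.77. On that last scale 79 of 80 members were positive (88.8% of all probes) and 2 passed (8.49% of all probes), Ndufb8 (2.15 ± 0.57, SE, adjusted p = 0.0453 by limma) and Ndufs3 (1.29 ± 0.35, SE, adjusted p = 0.0484). Adjusted p over the 20 settings ran from 0.0453 to 0.421 for Ndufb8 and from 0.0484 to 0.682 for Ndufs3.

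The orientations did not overlap for 10 members. In Ndufs3 alone every Cy5 value lay above every Cy3 value, against 5.68% of all probes. The Cy3 values lay above for 9 members, against 5.21% of all probes: Atp5d, Atp5e, Atp5h, Atp5j2, Cox4i1, Cox5b, Cycs, Ndufa1 and Ndufa2. With the values as deposited, Cycs alone of these had Cy3 above (2.50% of all probes), and 8 members had Cy5 above (11.9%). Before the array constant no member had Cy3 above and 35 had Cy5 above, where the shares of all probes were 1.39% and 24.4%. Which members separate by orientation thus changed with the centring. Against the centred values, both other scales raise every Cy5 array and lower every Cy3 array. Any probe with Cy5 above after centring, as Ndufs3, therefore stays so on all 3 scales. Cycs kept its order as deposited and lost it before the constant.

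**Figure D3:**
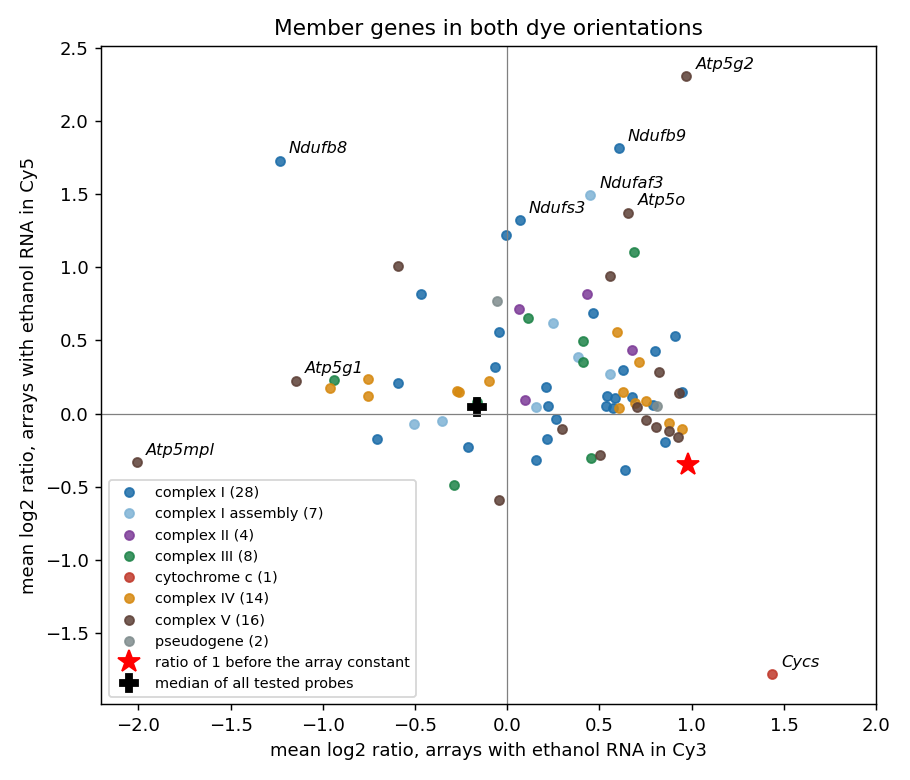
Mean log2 ratio minus the array median of each tested member on the arrays with exposed RNA in Cy3 (horizontal axis) and in Cy5 (vertical axis), coloured by complex. The red star is the value of a ratio of 1 before the array constant and the black cross the median of all tested probes. Under this centring 56 of 80 members have a positive mean in Cy3 and 58 of 80 in Cy5, whereas Cycs lies low in Cy5, Atp5g2 high in Cy5 and Atp5mpl low in Cy3.

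Complex I is the largest of the complexes, with a catalytic core of conserved subunits and a shell of accessory ones. The core had 5 tested genes with a shared median of 0.26 and a turning median of 0.27. The 23 tested accessory genes read 0.31 and -0.18, and 21 of them were positive in the shared part. The turning sign of the accessory genes follows the centring, as described for all members. By limma 0 of 28 subunits passed the adjusted threshold in either part, and at an unadjusted p under 0.05 there were 3 in the shared and 1 in the turning part (13.9% and 13.8% of all probes).

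Ndufs3, a core subunit of the matrix arm, was the only tested member with every Cy5 value above every Cy3 value after centring (5.68% of all probes). It read -0.12, -0.19, 0.26 and 0.32 with exposed RNA in Cy3 and 0.71, 1.31, 1.04 and 2.22 with it in Cy5. All 4 Cy5 values were positive and above all Cy3 values. Its shared part was 0.69 ± 0.29 (SE, n = 8 arrays), adjusted p = 0.329, and its turning part 0.63 ± 0.29 (SE, n = 8 arrays), adjusted p = 0.379 by limma.

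Ndufb9, an accessory subunit of the membrane arm, had the highest shared value of complex I. It read 0.57, 0.27, 1.15 and 0.43 in Cy3 and 3.98, 1.33, 2.41 and -0.46 in Cy5. The orientations overlapped, and 7 of 8 values were positive. The shared part was 1.21 ± 0.45 (SE, n = 8 arrays) with an adjusted p of 0.283. It was 0.85 without replicate 5, which held the highest value, and 1.59 without replicate 8, which held the lowest.

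Ndufa8, a small accessory subunit with twin cysteine motifs, was positive on every array. It read 1.27, 0.81, 0.99 and 0.57 in Cy3 and 0.98, 0.63, 0.31 and 0.20 in Cy5. The shared part was 0.72 ± 0.27 (SE, n = 8 arrays), adjusted p = 0.294, and it stayed between 0.64 and 0.78 when any array was left out. Besides Ndufa8, only Ndufa4 and Atp5c1 of the 80 members were positive on every array (1.82% of all probes), and none was negative on every array (1.75%).

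Ndufb8, another membrane arm subunit, had the highest turning value among all members. Its values were -3.48, -1.05, 0.82 and -1.22 in Cy3 and 3.37, 0.51, 0.30 and 2.74 in Cy5. The Cy5 values were all positive, and replicate 3 was the Cy3 array on which it was positive too, so the orientations overlapped. The turning part was 1.48 ± 0.52 (SE, n = 8 arrays) with an adjusted p of 0.233, between 1.11 and 1.82 when any array was left out.

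Ndufa2 and Ndufa1, both small accessory subunits, had narrow values in each orientation. Ndufa2 read 1.10, 1.23, 0.55 and 0.55 in Cy3 and -0.18, -0.50, 0.18 and -0.28 in Cy5, and its turning part was -0.53 ± 0.27 (SE, n = 8 arrays). Ndufa1 averaged 0.64 ± 0.22 (SD, n = 4) and -0.38 ± 0.26 (SD, n = 4). Both had all Cy3 values above the Cy5 values, yet before the array constant their turning parts were 0.14 and 0.15, with the opposite sign. On replicate 5 the value of Ndufa2 lay at a ratio of 1.

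Of the other core genes, Ndufs7 and Ndufv2 had shared parts of 0.58 and 0.26. Ndufv1, which binds NADH and flavin, read -0.08. Ndufs1, the largest core subunit, was the lowest of the complex at -0.44 and positive on 3 of 8 arrays. None of these had an unadjusted p under 0.05.

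The complex I assembly factors help build the enzyme and are not part of it. All 7 were tested, with a shared median of 0.39 and 5 of 7 positive. Ndufaf3 read 1.52, 0.23, -0.22 and 0.27 in Cy3 and 1.11, 2.50, 0.47 and 1.91 in Cy5. It was positive on 7 of 8 arrays, with a shared part of 0.97 ± 0.34 (SE, n = 8 arrays) and an adjusted p of 0.263. With the factors added, the shared median of complex I was 0.31 over 35 genes.

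Complex II, succinate dehydrogenase, also works in the citric acid cycle. All 4 subunit genes were tested, and none reached an unadjusted p under 0.05. Sdhc, a membrane anchor, read 0.35, 0.35, 0.62 and 0.42 in Cy3 and -0.19, 1.81, 1.94 and -0.29 in Cy5, with a shared part of 0.63 ± 0.35 (SE, n = 8 arrays). Replicates 6 and 7 held its high values. Sdhb, the iron-sulfur subunit, read 1.16, 1.24, 0.41 and -0.11 in Cy3 and 0.29, 0.08, 1.30 and 0.06 in Cy5, with a shared part of 0.55 ± 0.31 (SE, n = 8 arrays), and 7 of 8 values were positive.

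Sdha, the flavoprotein that binds succinate, rested on a single array. It read -0.23, 0.35, 1.06 and -0.92 in Cy3 and 3.30, 1.14, -0.46 and -1.13 in Cy5, so that 4 values were positive and 4 negative. Its shared part was 0.39 ± 0.49 (SE, n = 8 arrays) and turned to -0.04 without replicate 5. Sdhd, the other anchor, had a shared part of 0.10 with 7 of 8 values positive and a low value of -1.78 on replicate 1.

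Complex III passes electrons from ubiquinol to cytochrome c. Of its 8 tested genes none reached an unadjusted p under 0.05 in either part. Uqcr10, a small subunit, had the highest shared part at 0.90 ± 0.46 (SE, n = 8 arrays), adjusted p = 0.415. It read 1.24, 0.68, 0.65 and 0.19 in Cy3 and 0.34, 0.19, 4.02 and -0.15 in Cy5, and replicate 7 stood far above the other 7 arrays. Without that array the shared part was 0.41.

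The core subunits Uqcrc1 and Uqcrc2 had shared parts of 0.38 ± 0.32 (SE, n = 8 arrays) and 0.45 ± 0.32 (SE, n = 8 arrays). Uqcrc1 was highest on replicate 5 at 1.71 and Uqcrc2 on replicate 8 at 1.75. Cyc1, the cytochrome that hands electrons to cytochrome c, read 0.29, 0.36, 0.47 and 0.53 in Cy3 and -0.36, 0.92, 0.61 and 0.24 in Cy5, with a shared part of 0.38 ± 0.28 (SE, n = 8 arrays). Its orientations overlapped and replicate 5 was its only negative value.

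The other complex III genes lay near or below 0. Uqcrfs1, the Rieske iron-sulfur protein, read 1.24, -0.41, 0.58 and 0.41 in Cy3 and -0.18, -0.46, -0.05 and -0.51 in Cy5, with 3 of these values at a ratio of 1. Uqcrb, a small ubiquinone-binding subunit, was negative on 7 of 8 arrays, with a shared part of -0.39 ± 0.29 (SE, n = 8 arrays). Uqcrq had a turning part of 0.58 over 7 arrays, the highest of the complex.

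Cycs, the mobile carrier between complexes III and IV and an activator of caspases when released, had the most negative turning part of all members. It read 0.53, 2.50, 1.61 and 1.10 with exposed RNA in Cy3 and -0.94, -3.48, -0.42 and -2.27 with it in Cy5. All Cy3 values were positive and all Cy5 values negative, with means of 1.44 ± 0.84 and -1.78 ± 1.38 (SD, n = 4 each). The turning part was -1.61 ± 0.40 (SE, n = 8 arrays), with a limma adjusted p of 0.0923, above the threshold. It lay between -1.83 and -1.32 when any array was left out and was -0.94 before the array constant. The adjusted p ran from 0.0672 to 0.453 over the 20 settings and passed in none. The shared part was -0.17, and 0.11 without replicate 6.

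Complex IV, cytochrome c oxidase, has subunits that occur in tissue-specific forms. The general forms had 10 tested genes with a shared median of 0.40, 9 of them positive, and a turning median of -0.26. The 3 tested forms known from muscle, heart or testis (Cox6a2, Cox8b and Cox8c) had medians of -0.32 and 0.49, with none positive in the shared part and all positive in the turning part. The difference between these sets was not tested. In the turning part the sign of the general forms follows the centring. Without ratios at 1, 11 genes of the complex were left, with a shared median of 0.063 and a turning median of 0.163.

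Ndufa4 had the highest shared part of the complex. It read 0.43, 0.77, 0.61 and 0.57 in Cy3 and 0.47, 0.14, 0.41 and 1.22 in Cy5, all of them positive. The shared part was 0.58 ± 0.27 (SE, n = 8 arrays) with an adjusted p of 0.378. Cox6b1, which faces the intermembrane space, read 1.24, 0.84, 0.00 and 0.78 in Cy3 and 1.47, -0.14, 0.66 and -0.56 in Cy5, with a shared part of 0.53 ± 0.32 (SE, n = 8 arrays).

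Cox4i1 and Cox5b, both general subunits of complex IV, had every Cy3 value above every Cy5 value. Cox4i1 read 1.24, 1.31, 0.24 and 0.73 in Cy3 and -0.18, -0.17, 0.20 and -0.10 in Cy5. Cox5b read 1.24, 1.31, 0.75 and 0.51 in Cy3 and -0.18, 0.13, -0.03 and -0.35 in Cy5. Their turning parts were -0.47 ± 0.28 (SE, n = 8 arrays) and -0.53 ± 0.27 (SE, n = 8 arrays), and 0.19 and 0.14 before the array constant. On replicates 1, 2 and 5 both genes were at a ratio of 1.

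Tissue forms were set beside their general partners within each array. Cox6a2, the heart and muscle form of subunit 6a, read -0.95, -0.83, -1.15 and -0.91 in Cy3 and -1.06, 0.82, 0.17 and 0.76 in Cy5. Cox6a1, the general form, lay above it by 0.81 on average (SD 1.16), on 6 of 8 arrays. Cox4i1 lay above Cox4i2, a form of lung and low oxygen, by 0.47 on average (SD 1.19), on 5 of 8 arrays. Cox7a2 lay above the related Cox7a2l, which helps join complexes into supercomplexes, by 0.38 (SD 0.85), on 6 of 8 arrays. In each pair the mean difference was smaller than its SD over the 8 arrays. That SD also holds any gap between the orientations. In Cy3 all differences were positive, from 1.41 to 2.19 for Cox6a1, 0.25 to 1.91 for Cox4i1 and 0.72 to 1.23 for Cox7a2. In Cy5 they ran from -1.26 to 0.88, -1.33 to 1.48 and -1.47 to 0.85 in that order. The gap between orientations was not tested for these pairs.

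Complex V had all 16 genes tested. The 5 genes of the F1 head, which makes ATP, were all positive in the shared part, with a median of 0.54, a range from 0.35 to 0.75 and a turning median of -0.39. The 9 genes of the stalk and membrane part ranged from -1.17 to 1.02 with a median of 0.21. Atp5b, the catalytic beta subunit, read 1.24, 1.31, 0.75 and 0.43 in Cy3 and -0.18, 0.79, 0.04 and -0.08 in Cy5. Its ratio was at 1 on replicates 2 and 5, and Atp5e of the F1 head also had 2 values there. Atp5a1, the partner of Atp5b, read 1.15, 0.72, 1.06 and 0.36 and 0.14, 0.82, 0.36 and -0.17. The shared parts of Atp5b and Atp5a1 were 0.54 and 0.55, with adjusted p of 0.423 and 0.401, and replicate 8 was negative in both. Atp5c1, the rotating central stalk of F1, read 0.65, 0.27, 1.17 and 0.16 and 0.03, 0.50, 2.32 and 0.91, with a shared part of 0.75 ± 0.33 (SE, n = 8 arrays), adjusted p = 0.352. The genes Ndufaf3, Atp5c1, Atp5b, Atp5a1, Uqcrb, Ndufa1, Sdhd, Cox8c, Ndufs1, Ndufs7, Ndufv1 and Ndufv2 were singled out after their values were seen.

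The c ring turns as protons pass, and several genes encode the same mature c subunit. Atp5g2 had the highest shared part of all members. It read 1.10, 1.46, 0.58 and 0.74 in Cy3 and -0.18, 3.62, 2.29 and 3.50 in Cy5. The values were positive on 7 of 8 arrays, and 3 Cy5 arrays held the highest ones. The shared part was 1.64 ± 0.43 (SE, n = 8 arrays), with a limma adjusted p of 0.206. It lay between 1.42 and 2.05 when any array was left out. On replicates 3 and 5 its ratio was at 1.

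Atp5g1, which encodes the same mature protein, read -2.95, -1.23, 0.84 and -1.25 in Cy3 and -0.88, 0.46, 0.40 and 0.92 in Cy5, with a shared part of -0.46 ± 0.42 (SE, n = 8 arrays). Atp5g2 lay above Atp5g1 on 7 of 8 arrays, by 2.10 on average (SD 1.37), and replicate 3 was the exception at -0.26. The pair was fixed by name as c ring genes, but Atp5g2 was already the highest member, so the gap is a description.

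Atp5o, which joins the F1 head to the outer stalk, read 0.99, 0.93, 1.12 and -0.41 in Cy3 and 0.43, 2.51, 0.76 and 1.80 in Cy5. Replicate 4 was the only negative array. The shared part was 1.02 ± 0.34 (SE, n = 8 arrays), adjusted p = 0.254, between 0.83 and 1.19 when any array was left out. Atp5mpl, a small proteolipid of the membrane part, was the opposite case. It read -3.06, -1.92, -0.54 and -2.52 in Cy3 and -1.97, -0.34, -0.45 and 1.43 in Cy5, negative on 7 of 8 arrays, with a shared part of -1.17 ± 0.43 (SE, n = 8 arrays) and an adjusted p of 0.274.

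Atp5k, a subunit that helps the enzyme form dimers, had a turning part of 0.80 ± 0.39 (SE, n = 8 arrays), adjusted p = 0.398. It read -1.91, -0.92, 1.29 and -0.83 in Cy3 and 0.46, 1.92, 1.11 and 0.56 in Cy5, so that the Cy5 values were all positive and replicate 3 of Cy3 lay among them. Atp5j2, another membrane subunit, read 1.24, 1.31, 0.45 and 0.72 in Cy3 and -0.18, -0.11, -0.05 and -0.29 in Cy5. Its turning part was -0.54 ± 0.27 (SE, n = 8 arrays), and 0.12 before the array constant. Its values on 3 arrays were at a ratio of 1.

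Atp5md, a small membrane subunit, was the only member with a second probe. Its tested probe read 0.71, 0.68, 0.44 and -1.998 in Cy3 and -0.35, -0.66, -0.70 and -0.67 in Cy5, with a shared part of -0.32 ± 0.36 (SE, n = 8 arrays). All Cy5 values were negative, and replicate 4 was the negative Cy3 array. The other probe had values on 5 arrays: -0.39 and -1.46 on replicates 2 and 4, and 0.94, -0.085 and 0.72 on replicates 5 to 7. The probes thus differed in sign on replicates 2, 5 and 7.

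**Figure D4:**
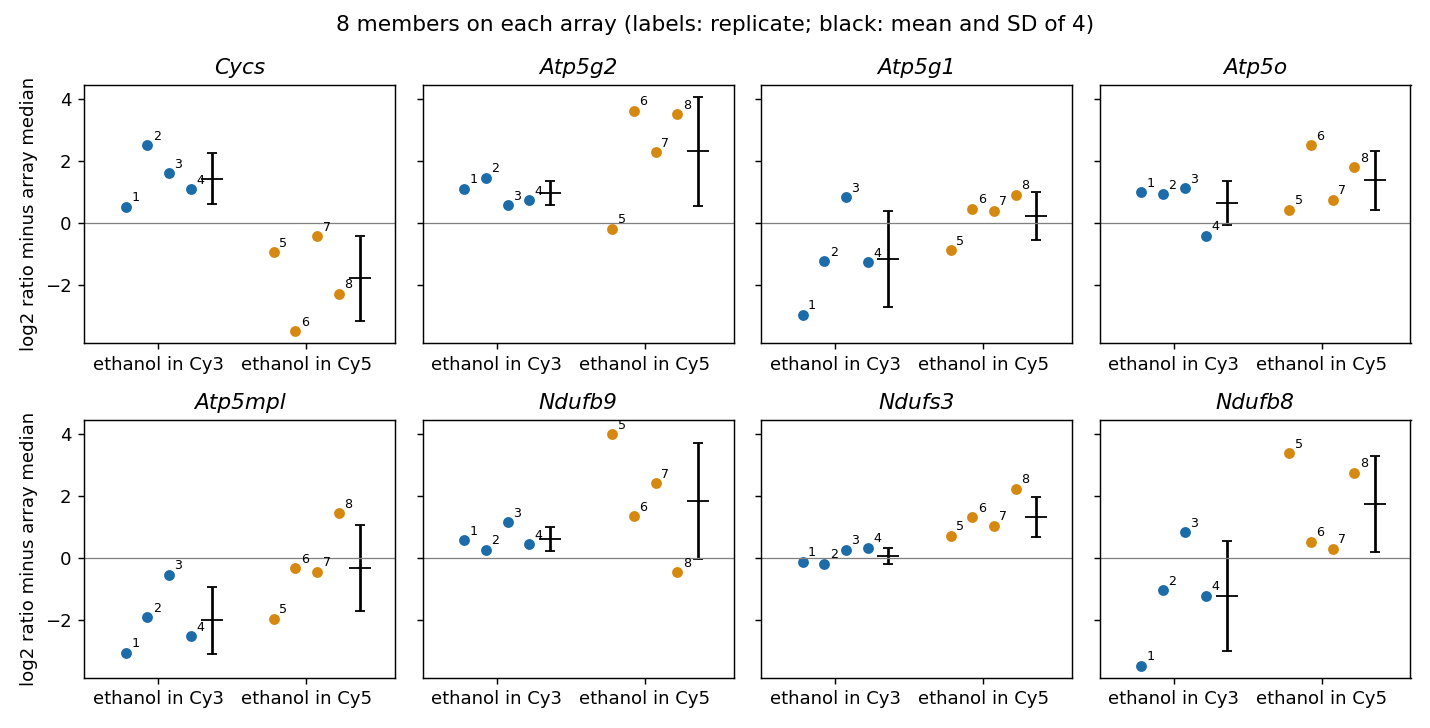
Log2 ratio minus the array median (vertical axis) of 8 members on each array, with exposed RNA in Cy3 (blue) and in Cy5 (orange), points labelled by replicate, and the mean with its SD over 4 arrays in black. Cycs is positive on every Cy3 array and negative on every Cy5 array, Ndufs3 is higher on every Cy5 array, and Atp5g2 lies above Atp5g1 on 7 of 8 arrays.

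Promoter sequences were set beside these genes because Nrf1 and ETS factors are known regulators of the chain. RefSeq's table for GRCm38.p6 held a promoter of 300 bases (250 before to 50 after the gene start) for 69 of the 87 members and for 27025 genes in all, and both strands were searched for fixed letters. The palindromic NRF1 core motif, spelled out in capitals in the sequences below, was found in 5 members (7.25%, against 1.07% of all promoters): Atp5g2, Atp5k, Cox6a1, Ndufaf5 and Uqcrc1. The ETS motif CCGGAAG was found in 17 members (24.6% against 9.93%) and the YY1 motif AAGATGGC in 11 (15.9% against 3.19%). The cyclic AMP response element TGACGTCA, added after the values were seen, was found in 4 (5.80% against 2.03%): Cycs, Ndufa10, Ndufb2 and Uqcrfs1. The NRF1 and TGACGTCA letters read the same on both strands, and the last 3 letters of the ETS motif are the first 3 of the YY1 motif, so that these matches can overlap. A match describes the sequence and shows no binding. The stretches below are those of the c ring gene with the highest shared part, of 2 other genes with the NRF1 letters upstream, and of Cycs, with the motif in capitals and 20 bases on each side.
Atp5g2, chr15:102671060-102671109, minus strand: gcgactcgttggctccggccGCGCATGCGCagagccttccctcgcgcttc
Cox6a1, chr5:115349091-115349140, minus strand: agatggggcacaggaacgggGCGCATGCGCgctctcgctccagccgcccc
Atp5k, chr5:108434420-108434469, minus strand: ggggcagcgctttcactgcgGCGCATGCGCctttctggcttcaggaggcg
Cycs, chr6:50566711-50566758, minus strand: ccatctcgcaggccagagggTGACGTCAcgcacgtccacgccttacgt

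Shared medians of the members with each motif are given as a description. They were 0.39 over 5 tested genes with the NRF1 letters, 0.37 over 14 with the ETS letters, 0.36 over 10 with the YY1 letters and 0.11 over 4 with the cyclic AMP element, against 0.35 for all members. The turning medians under the centring used were 0.27, -0.16, -0.21 and -0.23 in the same order, against -0.04 for all members. None of these shared and turning medians was tested.

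Regulators of the chain and of mitochondrial DNA were read from a list with 25 genes on the array, 23 of them tested. Their shared median was -0.20 with 10 of 23 positive. Their turning median under the centring used was 0.18 with 16 of 23 positive, against 56.9% of all probes. At an unadjusted p under 0.05 by limma there were 4 in the turning part (13.8% of all probes), 3 positive and 1 negative. After adjustment 1 of 23 passed in the turning part, against 1.56% of all probes. That gene was Nrf1, with a single probe. It read 4.83, 2.53, 3.27 and 1.86 in Cy3 and -1.80, -2.93, -1.37 and -1.27 in Cy5. All Cy3 values were positive and all Cy5 values negative. The turning part was -2.48 ± 0.38 (SE, n = 8 arrays) with an adjusted p of 0.00908 by limma. It passed in each of the 20 other settings except without the 3 arrays whose code ends in r, where the adjusted p was 0.105 and the range over all settings was 0.00449 to 0.105. Gabpa read -2.80, -1.31, -0.98 and -3.32 in Cy3 and -2.56, -3.20, -1.76 and 0.05 in Cy5, with a shared part of -1.98 ± 0.43 (SE, n = 8 arrays) and an adjusted p of 0.167. Ppargc1a had a shared part of -1.47 ± 0.58 (SE, n = 7 arrays) and an adjusted p of 0.314.

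Other gene lists of mitochondria and ribosomes also had positive shared medians under this centring, and 0 of their genes passed the adjusted threshold in the shared part by limma. Over all probes 46.1% were positive and 13.9% had an unadjusted p under 0.05. The 69 tested mitochondrial ribosomal protein genes had a shared median of 0.39 (59 positive, 12 at an unadjusted p under 0.05), and the 67 tested cytosolic ribosomal protein genes 0.33 (57 positive, 3 such genes). The 18 citric acid cycle genes read 0.30 (15 positive, 2 such genes), the 16 carriers and porins 0.33 (14 positive, 2 such genes), and 25 assembly factors outside the rule 0.23 (17 positive, 3 such genes). Cytosolic ribosomal protein genes had a lower turning median, -0.37, than the chain's -0.04. That difference was not tested and both values follow the centring. Among carriers Vdac1, a porin of the outer membrane, was positive on 8 of 8 arrays with a shared part of 0.72 ± 0.28 (SE), adjusted p = 0.302.

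Markers of the cell types the cultures could hold were read beside these values. All 8 progenitor markers on the array were tested, with a shared median of 0.69 (6 positive), and 4 of 7 neuronal markers read 0.12 (2 positive). The 6 astrocyte markers read -0.90 with none positive. For 5 oligodendrocyte lineage markers the median was -0.48 (2 positive), and for 3 of 5 microglial markers -0.52 (1 positive). The 5 endothelial markers read -0.14 (2 positive), 2 erythroid markers -0.56 (1 positive) and 2 of 5 muscle markers 0.11 (1 positive). Single shared values ran from -0.57 to 1.31 among progenitor markers and from -1.88 to 0.46 among neuronal markers. The lowest neuronal one was Dcx, negative on 7 of 8 arrays, with an adjusted p of 0.180 by limma. Pax6 had the highest turning part of these markers, 3.82 ± 0.84 (SE, n = 8 arrays), adjusted p = 0.0572 by limma. The turning median of the progenitor markers was -0.07, with 2 of 8 positive. By limma 0 of these 35 markers passed the adjusted threshold in either part, and at an unadjusted p under 0.05 there were 8 in the shared and 6 in the turning part, against 13.9% and 13.8% of all probes. Ratios do not show whether a marker was present or near 0, and the part of cell makeup in the members' values was not tested.

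Members also differed among arrays of the same orientation. Over the 74 members with values on all 8 arrays the mean correlation between arrays, across genes, was 0.32 within Cy3 (6 pairs), 0.23 within Cy5 (6 pairs) and -0.02 between orientations (16 pairs). Over all probes with complete values it was 0.33, 0.25 and -0.09. These are correlations across genes, which are not independent replicates, of arrays that share a dye orientation.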

How the data were processed

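Ratios of exposed and control RNA were measured on 8 two-colour arrays. Per the labels' protocols, Trizol and an RNeasy kit gave the total RNA, of which 1 µg was reverse-transcribed and labelled by Genisphere's 3DNA system. The authors deposited log2 ratios, 1 per probe and array, with no intensities. No source used here names the scanner, background correction, normalization or direction. Depth has no meaning for such ratios, and the number of arrays limits the precision.

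Values of exactly 0 and each array's highest value were treated as missing, as ratios with no computable value. The highest value equals the log2 of 100000 plus the array's constant, which gave the ratios before that constant. Between 16274 and 18802 probes per array (75.4% to 87.1%) had a value. The arrays were centred on their medians, and limma 3.58.1 in R 4.3.3 (lmFit, then eBayes) fitted a shared and a turning coefficient to the 15345 of 21582 probes with 3 or more values per orientation. Benjamini-Hochberg adjustment ran over all of these, and the threshold was 0.05. The code of the fit was checked on simulated data with known parts. How often parts of the members' size would pass the threshold is not given here. Missing values were not imputed. Gene names came from the platform annotation, where 16635 probes have 1 gene symbol and 4834 none. Probes with several were left unnamed, and none of those matched the members' rule.

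The members, gene lists, motifs and tests were chosen with earlier results of these data known. The genes named are, in each complex and each part, the 3 with the smallest unadjusted p. Isoform families, members with a second probe and members not tested are named too. From the other lists only some of the 2 genes with the smallest p in each part are named. Left out were, among others, Tspo, Mrpl49 and Rplp2, each with the smallest shared p of its list. Further genes are said to be singled out after their values were seen. The settings tried besides this one were values as deposited, other minimums of arrays, exact 0 or highest values kept, quantile normalization, array weights, robust eBayes, array code number as a random block, no r arrays, and each array left out in turn. Ratios before the array constant, leaving out ratios at 1, and complex I with its assembly factors were added after the data were seen. Python 3.11.15 was used for the tables.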

Additional observations from a re-analysis of the deposited data

Results flagged for a closer look

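A single array stood far from the other 3 arrays of its dye orientation in 6 of the 100 groups of 4 values checked among the described genes and the complexes' medians, by Dixon's test. Chance gives about 1 in 20 such groups. Uqcr10, of complex III, read 4.02 on replicate 7 with exposed RNA in Cy5, against -0.15 to 0.34 on the others. Uqcrc1, a core subunit of complex III, read 1.71 on replicate 5, against 0.21 to 0.46. Atp5o, of the ATP synthase stalk, read -0.41 on replicate 4 with exposed RNA in Cy3, against 0.93 to 1.12. Atp5md, a small ATP synthase subunit, read -1.998 on replicate 4, against 0.44 to 0.71. In Cy5 Atp5md read -0.345 on replicate 5, against -0.70 to -0.66. Ndufa1, an accessory subunit of complex I, read 0.31 on replicate 3 with exposed RNA in Cy3, against 0.72 to 0.80. What set these values apart was not tested.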

How the results depend on the processing

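Over the 20 other settings no member passed the threshold in the shared part, and in the turning part members passed in 1, where 2 passed before the array constant (8.49% of all probes passed there). Of 296 medians under these settings 22 had the other sign, as had 11 of 630 values of the named genes, each taken in the part it was named for.

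Before the array constant the shared medians were 0.039 for members, -0.015 for complex I, -0.086 for complex III, 0.037 for complex IV and 0.052 for complex V. The turning medians there were 0.620 for members, 0.507, 0.758, 0.761, 0.565 and 0.392 for complexes I to V. As deposited they were 0.274 for members, 0.162 for complex I, 0.398 for complex III, 0.219 for complex IV and 0.047 for complex V. With exact 0 kept they were 0.200 for members, 0.088 for complex I, 0.324 for complex III and 0.1455 for complex IV, and without the r arrays complex III read -0.145. Both scales without centring shift all probes too, by the amounts given for them above. Before the constant the members' turning parts shift upward nearly alike, by 0.593 to 0.692, and 44 of the 45 negative members became positive, among them Ndufa2 (0.138), Uqcrfs1 (0.287), Cox5b (0.135), Cox4i1 (0.194) and Atp5j2 (0.121). Sdhb turned to 0.196 as deposited, 0.122 with exact 0 kept and 0.542 before the constant. With each array left out, the shared part ranged from -0.043 to 0.695 in Sdha and from -0.398 to 0.112 in Cycs, and the turning part of Sdha from -0.105 to 0.633.

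Leaving out single arrays also turned the turning median of complex II (-0.045 without replicate 5, -0.0083 without replicate 7) and of complex III (-0.0735 to -0.0072 without replicate 3, 4, 7 or 8).

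Without ratios at 1 there were 72 tested members, with shared medians of 0.32 for members, 0.30 for complex I, 0.38 for complex III, 0.063 for complex IV (11 genes left) and 0.29 for complex V. The turning median of complex IV turned to 0.163. Replicate numbers run on from 1 to 8 and pair no arrays, while the array code numbers 1, 3 and 5 occur in both orientations. Code number as a random block (consensus correlation 0.00845) changed no call. The mean of a gene's probes was not run, since only Atp5md has a second probe and it was not tested. Ratios without intensities do not show how bright a probe was, and 8 arrays limit every test.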

Other observations

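Among the other mitochondrial lists the genes given here were among the 2 with the smallest unadjusted p of their list in a part, and none of them passed the adjusted threshold by limma. Ucp3, an uncoupling protein known from muscle, read 1.52, 1.82, 0.90 and 1.24 with exposed RNA in Cy3 and -5.62, -2.82, -3.26 and 0.09 with it in Cy5, with a turning part of -2.14 ± 0.52 (SE, n = 8 arrays) and an adjusted p of 0.0858. Coa3, an assembly factor of complex IV, was positive on 7 of 8 arrays with a shared part of 0.89 ± 0.33 (SE), adjusted p = 0.287. Uqcc2, an assembly factor of complex III, was positive on 8 of 8 arrays with a shared part of 0.62 ± 0.27 (SE), adjusted p = 0.342. Sucla2, a citric acid cycle enzyme, was negative on 7 of 8 arrays with a shared part of -1.46 ± 0.59 (SE), adjusted p = 0.317. Mrps16, of the mitochondrial ribosome, read 1.17 ± 0.39 (SE) with 7 of 8 arrays positive and an adjusted p of 0.251.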
